A study of Mus musculus with 81 samples.

Results

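TCRBV29-01, known as Vbeta7 in the antibody nomenclature for mouse T cells, is a variable segment of the T-cell receptor beta (TCRβ) gene, and the rearrangements that use it were taken from 81 TCRβ libraries. Members were the rows whose V call began with TCRBV29 and whose reading frame was productive (labelled In), and 12929 of 379294 productive rows met this rule. They held 22638 of 1077754 productive templates, where a template is a counted copy of a rearranged gene. TCRBV29-01 was 1 of 35 V segments resolved to a gene in the files, and all of its rows carried a single allele. The levels below leave out 2 receptors that dominated many libraries, namely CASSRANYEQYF of the transferred OT-1 cells and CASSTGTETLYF of the lymphoma cells. This left 613408 templates, of which 0.0119% had no V segment resolved to a gene.

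The libraries came from 27 Pep Boy mice (B6.SJL-Ptprc a Pepc b/BoyJ, CD45.1), all of which received naive OT-1 cells, CD8+ T cells with a transgenic receptor for ovalbumin (OVA). In the treatment experiment, 15 mice with subcutaneous EG7.OVA tumors (the T-cell lymphoma EL4 expressing OVA) received 1e6 OT-1 cells and then, on days 0 and 3, mouse red blood cells. These were 1e9 control cells (mRBC-CTRL) or either 2.5e8 or 1e9 cells of the kind named mRBC-OVA-4-1BBL-IL-12, which present OVA peptide with 4-1BB ligand and interleukin 12. These mice gave 28 blood libraries of day 0, drawn minutes after the OT-1 transfer, and of day 7, and 15 tumor libraries of day 7. In the rechallenge experiment, 7 mice whose tumors had been cured by mRBC-OVA-4-1BBL-IL-12 at 2.5e8 after 1e6 OT-1 cells were bled on days 65 and 73 around an EG7.OVA rechallenge on day 66 and on days 126 and 136 around an EL4 challenge on day 127, while 5 age-matched naive mice, given 5e5 OT-1 cells on day 65 and then challenged with EG7.OVA, were bled on the first pair of these days. The day 73 library of cured mouse 2 names mouse 1 in its label and was placed by its animal code. Day 7 blood of mRBC-CTRL mouse 1 and day 0 blood of 1e9 mouse 1 were not analysed here.

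A TCRβ chain is assembled in the thymus by joining a V, a D and a J segment, with bases trimmed from the ends and nontemplated (N) bases added at the joints. The joint encodes the CDR3 loop, which contacts the peptide presented to the T cell, and each joint marks a clone of T cells. An out-of-frame joint (labelled Out) makes no receptor and stays in a cell that carries a productive joint on its other chromosome, so Out rows record how often a V segment is joined before any selection on the receptor. In the RefSeq gene table for GRCm38.p6, Trbv29 lies on chromosome 6 beside Trbv30, the only V segment between it and Trbd1 in the order of that table, and its type is given as a V segment pseudogene. That type is given as RefSeq lists it, although most TCRBV29-01 rearrangements here were productive. In the blood libraries 68.4% of TCRBV29-01 rearrangements were In, 30.6% Out and 0.978% held a stop codon, against 65.3%, 33.7% and 1.05% for all other V segments.

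The sequences that carry the findings are shown first, each as the 87-base read from 5′ to 3′ with the CDR3 from its cysteine codon in capitals. The last codon of the CDR3 lies beyond the read. They belong to large TCRBV29-01 clones of 4 mice of the treatment experiment and 1 cured mouse. They are shown because each was the largest TCRBV29-01 clone in the libraries of its mouse taken after the first sampling.
2.5e8 mouse 3, J1-3 clone of 15 residues: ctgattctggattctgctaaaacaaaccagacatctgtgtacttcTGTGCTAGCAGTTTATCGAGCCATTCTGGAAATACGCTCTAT
2.5e8 mouse 2, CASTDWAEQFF: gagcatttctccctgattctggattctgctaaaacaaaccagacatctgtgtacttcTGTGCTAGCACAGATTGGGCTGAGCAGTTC
1e9 mouse 3, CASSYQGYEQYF: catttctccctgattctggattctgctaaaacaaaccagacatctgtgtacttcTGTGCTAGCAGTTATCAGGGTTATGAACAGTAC
mRBC-CTRL mouse 5, J2-1 clone of 15 residues: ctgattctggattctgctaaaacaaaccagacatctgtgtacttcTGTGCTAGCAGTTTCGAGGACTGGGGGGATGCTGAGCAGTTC
cured mouse 7, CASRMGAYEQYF: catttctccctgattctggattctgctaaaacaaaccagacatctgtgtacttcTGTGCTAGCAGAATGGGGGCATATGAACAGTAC

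The level of TCRBV29-01 varied more between tumors than between blood libraries. In the 14 day 0 blood libraries it made up 3.08% ± 0.309 (SD) of templates and ranked 17 of the 23 V segments with a mean share of at least 0.1%. Its neighbours in that order were TCRBV12-02 at 3.21% ± 0.417 and TCRBV14-01 at 2.55% ± 0.347, and its gap to TCRBV12-02 was smaller than the spread between mice, whereas that to TCRBV14-01 exceeded it. Over the 66 blood libraries the share ranged from 2.37% to 6.20% with a median of 3.43%. Over the 15 tumors it ranged from 0.940% to 18.8% with a median of 3.21%, and its rank ran from 1 to 19. The share of rearrangements, which counts each distinct nucleotide sequence once whatever its templates, ranged only from 2.38% to 6.32% in blood and from 2.73% to 5.61% in tumors. Some reads differed from the read of a large clone only before the CDR3. A large clone can thus be counted more than once, and this share is not wholly free of clone size. Libraries held between 27 and 2374 TCRBV29-01 templates, and productive templates of all V segments ranged from 2355 to 77041, or from 482 to 23605 without the 2 receptors left out. A share rises when other receptors fall, so more T cells with TCRBV29-01 and fewer of the rest cannot be told apart.

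Ordered by mean template share, mRBC-CTRL tumors were lowest at 2.81% ± 2.24 (SD, n = 5). They were followed by the blood drawn minutes after the OT-1 transfer, at 3.02% ± 0.392 for the 1e9 mice (n = 4), 3.03% ± 0.356 for naive mice on day 65 (n = 5), 3.08% ± 0.375 for mRBC-CTRL (n = 5) and 3.13% ± 0.220 for the 2.5e8 mice (n = 5). Day 7 blood of mRBC-CTRL mice (3.30% ± 0.238, n = 4) and 1e9 tumors (3.36% ± 2.27, n = 5) came next. The 4 samplings of cured mice lay at 3.50% ± 0.287 before and 3.55% ± 1.14 after the EG7.OVA rechallenge and at 3.59% ± 0.493 before and 3.73% ± 0.382 after the EL4 challenge (n = 7). Naive mice on day 73 reached 3.96% ± 0.398 (n = 5). Day 7 blood of the 1e9 group (4.29% ± 1.44, n = 5) and of the 2.5e8 group (4.65% ± 1.09, n = 5) and the 2.5e8 tumors (6.49% ± 7.09, n = 5) were highest. No gap between neighbours in this order exceeded the larger of their SDs.

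**Figure D1:**
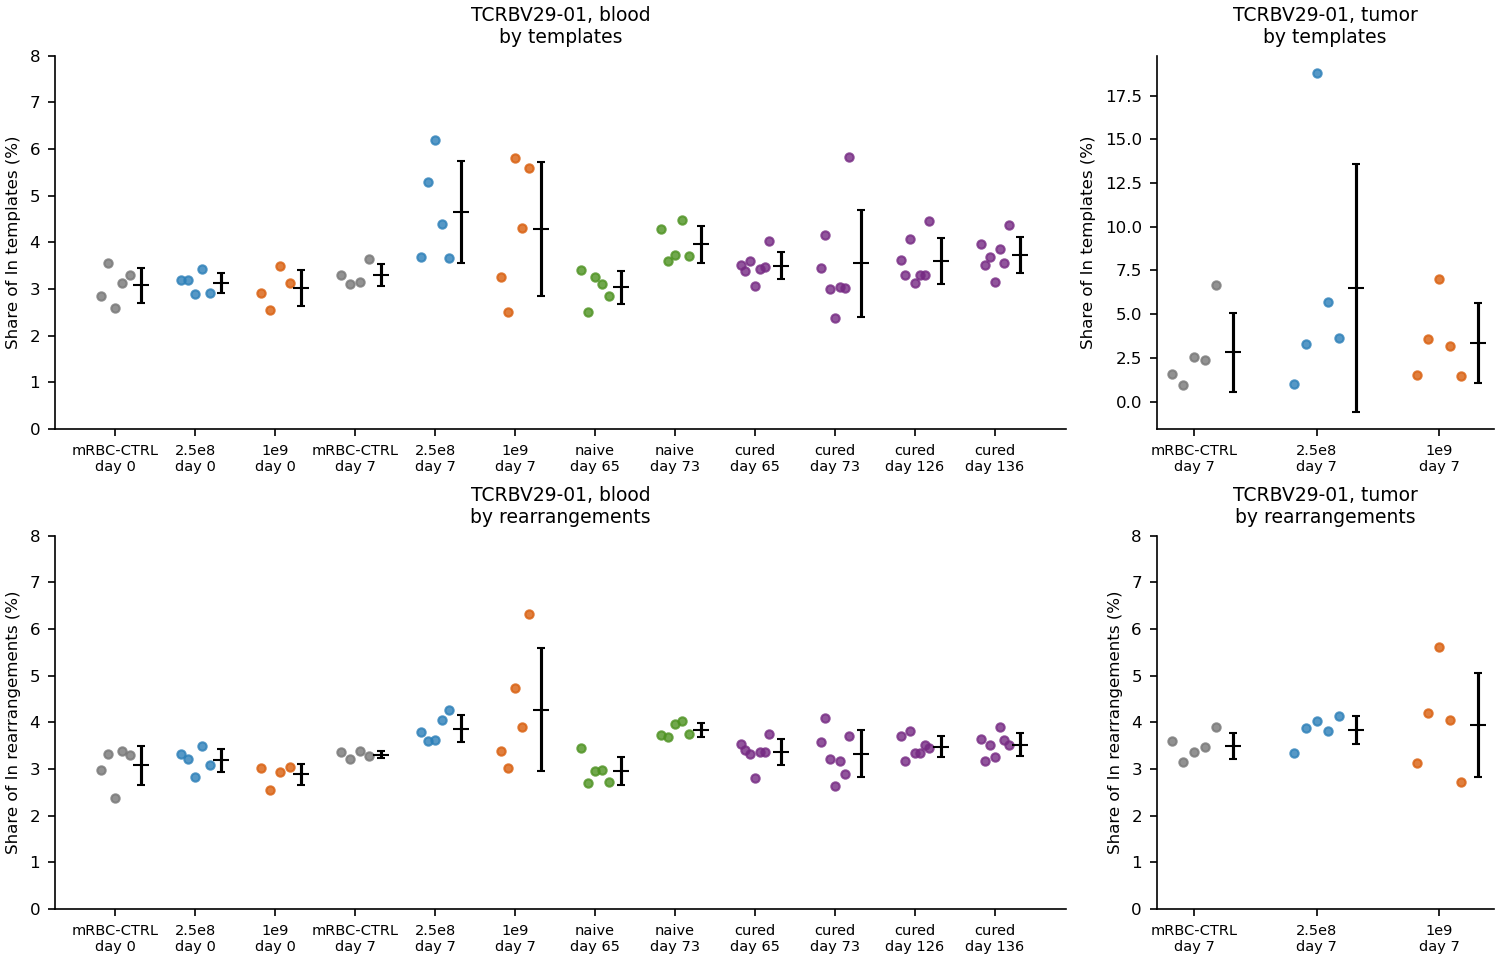
TCRBV29-01 as a percent of productive templates (upper panels) and of productive rearrangements (lower panels), without the 2 dominant receptors, in each blood library (left) and tumor library (right). Points are mice, and bars give the mean ± SD of the group, with the tumor template panel on a wider axis. The 2.5e8 tumor of mouse 3 at 18.8% stands far above the other tumors by templates but not by rearrangements, where its share was 4.02%.

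Between day 0 and day 7, the TCRBV29-01 share rose in each of the 5 mice given mRBC-OVA-4-1BBL-IL-12 at 2.5e8. Their day 0 shares were 3.20%, 3.19%, 2.90%, 3.43% and 2.92% for mice 1 to 5, and their day 7 shares were 3.68%, 5.29%, 6.20%, 4.39% and 3.67%, so the ranges of the 2 days did not overlap. The mean change was 1.52 percentage points (SD 1.17). With 5 pairs an exact sign-flip test cannot go below p = 0.0625, which was its value, and the adjusted p over the 23 V segments was 0.359 by the same exact test. In this group 4 of 23 V segments (17.4%) moved the same way in all mice. Counted by rearrangements the share also rose in 5 of 5 mice, from 3.19% ± 0.249 to 3.87% ± 0.290. Without the largest TCRBV29-01 clone of each library the mean change in templates was 0.449 percentage points, again at the smallest exact p of 0.0625.

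In the 1e9 group the share was 2.91%, 2.55%, 3.49% and 3.13% on day 0 in mice 2 to 5 and 2.51%, 5.80%, 4.30% and 5.60% on day 7, higher in 3 of 4 mice. The mean change was 1.53 percentage points (SD 1.64, exact sign-flip test, p = 0.250, adjusted p = 0.411), where 4 pairs allow no p below 0.125, and 7 of 23 V segments (30.4%) moved 1 way in all 4 mice. Without mouse 3 the change was 0.962. The day 7 library of mouse 5 held only 482 templates other than the 2 receptors, and its 27 TCRBV29-01 templates give a 95% Wilson interval of 3.88% to 8.03%, which covers counting error only. By rearrangements the share rose in 4 of 4 mice, from 2.88% ± 0.230 to 4.50% ± 1.40. In mRBC-CTRL mice it was 3.55%, 2.59%, 3.12% and 3.29% on day 0 and 3.30%, 3.11%, 3.16% and 3.64% on day 7 in mice 2 to 5. The share was higher in 3 of these 4 mice, by a mean of 0.162 percentage points (SD 0.340), at p = 0.375 in the exact sign-flip test (adjusted p = 0.821), and 4 of 23 V segments (17.4%) moved 1 way in all of these mice. The mean change was 0.0442 without mouse 3, 0.101 without mouse 5 and 0.301 without mouse 2.

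Set against the change with mRBC-CTRL, the change at 2.5e8 was larger by 1.36 percentage points, with p = 0.0476 by an exact permutation test and an adjusted p = 0.274 over the V segments. The same contrast at 1e9 gave 1.37 percentage points, with an exact permutation p = 0.200 (adjusted p = 0.460). These comparisons share the mRBC-CTRL mice. In day 7 blood itself, all 5 mice at 2.5e8 (3.67% to 6.20%) lay above all 4 mRBC-CTRL mice (3.11% to 3.64%), with means 1.34 percentage points apart and an exact permutation p = 0.0317 (adjusted p = 0.156), and 4 of 23 V segments (17.4%) separated the groups. At 1e9 the range of 2.51% to 5.80% overlapped that of mRBC-CTRL, with means 0.992 percentage points apart and an exact permutation p = 0.246 (adjusted p = 0.514), and 2 of 23 V segments (8.7%) separated the groups. The difference was 0.615 without mouse 3 and 1.44 without mouse 2 of the 1e9 group. With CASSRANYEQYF and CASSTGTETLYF kept in the denominator, this difference turned to -1.63 percentage points (exact permutation p = 0.0159, adjusted p = 0.0166). Those 2 receptors then count as part of the library, so a rise in their templates lowers the share of other receptors. The adjusted p lies close to the p, which requires that most of the 23 V segments had a p about as small.

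Naive mice showed the most uniform shift. Their shares on day 65 were 3.41%, 2.51%, 3.27%, 3.11% and 2.86%, and on day 73, a week after the EG7.OVA challenge, they were 4.29%, 3.60%, 3.72%, 4.48% and 3.70%. Every day 73 value lay above every day 65 value. The mean change of 0.927 percentage points (SD 0.337, higher in 5 of 5) was the largest in size among the 23 V segments, of which 5 (21.7%) moved 1 way in all 5 mice. The exact sign-flip test gave p = 0.0625, the smallest possible with 5 pairs (adjusted p = 0.288). No large clone carried this change, since the largest TCRBV29-01 clone on day 73, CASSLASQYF in mouse 1, had 4 templates or 0.0799% of the library, and the share of rearrangements went from 2.96% ± 0.305 to 3.83% ± 0.151, higher in 5 of 5. The share among Out rearrangements was 2.93% ± 0.377 and 3.01% ± 0.486 on the 2 days, a mean change of 0.0787 percentage points (exact sign-flip test, p = 0.813, adjusted p = 0.890). Day 65 blood of naive mice, like day 0 blood of treated mice, was drawn minutes after OT-1 cells had been transferred, and the part of donor-derived receptors in these values was not tested.

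In cured mice the TCRBV29-01 share changed little around either challenge. Around the EG7.OVA rechallenge it was 3.52%, 3.39%, 3.59%, 3.06%, 3.43%, 3.48% and 4.03% on day 65 in mice 1 to 7 and 3.44%, 4.16%, 3.01%, 2.37%, 3.03%, 3.02% and 5.84% on day 73. It was lower in 5 of 7 mice, and the mean change of 0.0531 percentage points (SD 0.917, exact sign-flip test, p = 0.906, adjusted p = 0.947) turned to -0.240 without mouse 7 and to -0.0662 without mouse 2. Of the 23 V segments 1 (4.35%) moved the same way in all 7 mice. Around the EL4 challenge, shares ran from 3.13% to 4.46% on day 126 and from 3.16% to 4.36% on day 136, higher in 5 of 7 mice, with a mean change of 0.134 percentage points (SD 0.308, exact sign-flip test, p = 0.297, adjusted p = 0.759), and 0 of 23 V segments (0%) moved 1 way in all mice. The change was 0.0641 without mouse 5 and 0.220 without mouse 3.

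Before the EG7.OVA challenge, the mean of cured mice was 3.50% and that of naive mice 3.03%, which differed by 0.467 percentage points with an exact permutation p = 0.0265 (adjusted p = 0.290). The ranges of 3.06% to 4.03% and 2.51% to 3.41% overlapped, and 1 of 23 V segments (4.35%) separated the groups. Of the omissions of single mice, only that of cured mouse 4 brought the adjusted p under 0.05. The difference was then 0.540 percentage points, at an adjusted p = 0.0498 of the exact permutation test. Without naive mouse 2 it was 0.337 (exact permutation p = 0.0818, adjusted p = 0.372). After the challenge the order turned, with 3.55% in cured and 3.96% in naive mice, a difference of -0.406 within the spread between mice (p = 0.479 by the exact permutation test, adjusted p = 0.715), and 0 of 23 V segments (0%) separated the groups. It was -0.787 without cured mouse 7 (exact permutation p = 0.0303, adjusted p = 0.348) and -0.209 without cured mouse 4. The change in cured mice minus that in naive mice was -0.873 percentage points, with an exact permutation p = 0.0707 (adjusted p = 0.325). OT-1 doses and the time since transfer differed between these groups and cannot be told apart from the history of cure.

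**Figure D2:**
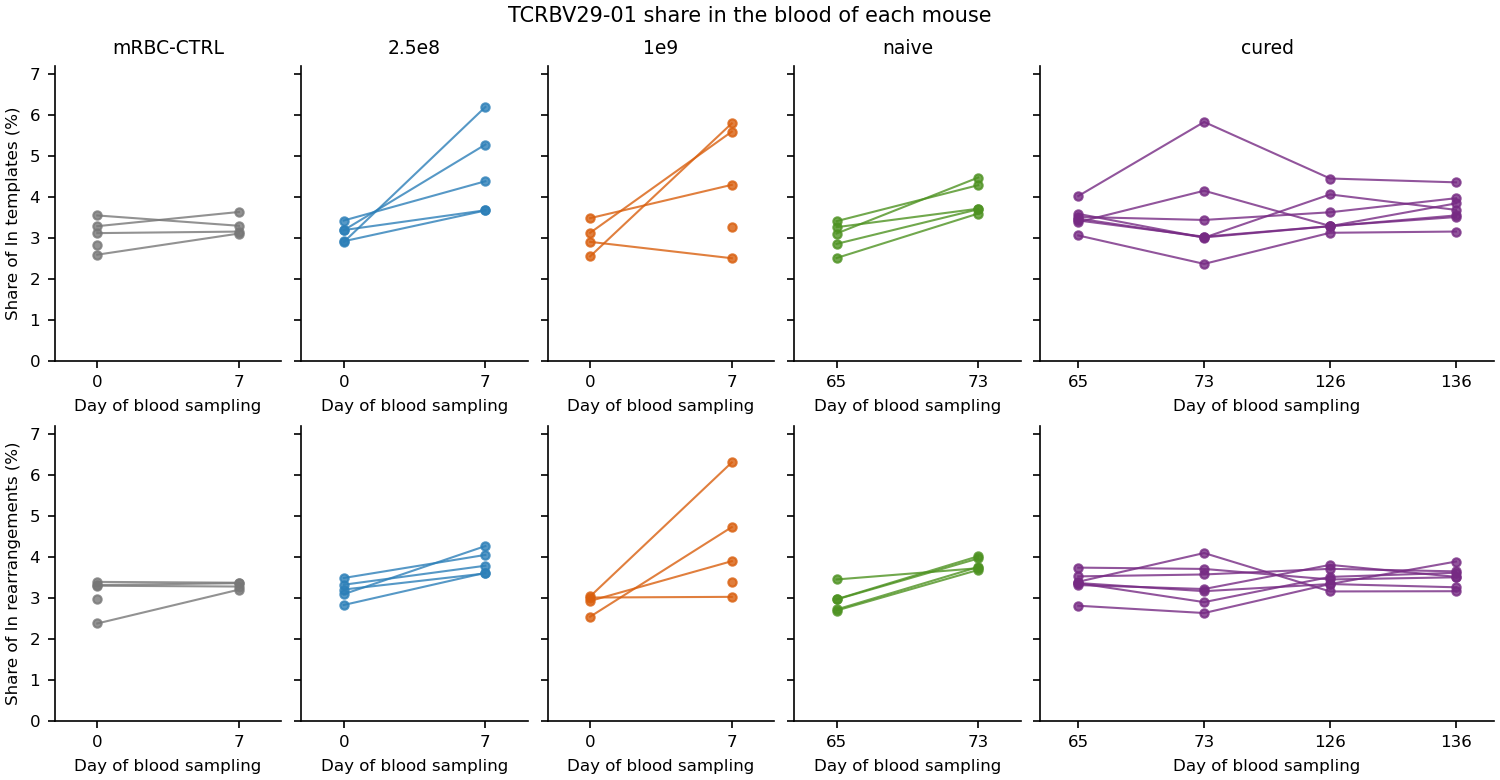
TCRBV29-01 share in blood by day of sampling, as a percent of productive templates (upper row) and of productive rearrangements (lower row). Lines join the libraries of a mouse, and points without a line are mice with a single blood library. All lines rise at 2.5e8 and in naive mice in both rows, while those of cured mice cross, with mouse 7 at 5.84% on day 73.

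In tumors the TCRBV29-01 share varied so widely that no difference between treatments exceeded it. It was 1.57%, 0.940%, 2.55%, 2.35% and 6.65% in mRBC-CTRL mice 1 to 5, 1.02%, 3.28%, 18.8%, 5.72% and 3.63% in 2.5e8 mice and 1.51%, 3.61%, 7.03%, 3.21% and 1.45% in 1e9 mice. The groups overlapped, with a single tumor far above the rest at 2.5e8 (18.8%) and with mRBC-CTRL (6.65%). Tumors at 2.5e8 differed from those of mRBC-CTRL mice by 3.68 percentage points, or 0.598 without mouse 3, with an exact permutation p = 0.325 (adjusted p = 0.748). Tumors at 1e9 differed by 0.549 percentage points with an exact permutation p = 0.627 (adjusted p = 0.848), or by -0.369 without mouse 3 of that group and 1.51 without mRBC-CTRL mouse 5. In neither comparison did any of the 23 V segments (0%) separate the groups. By rearrangements the means were 3.49% ± 0.283, 3.84% ± 0.301 and 3.94% ± 1.12 for mRBC-CTRL, 2.5e8 and 1e9 (n = 5).

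Set against the day 7 blood of the same 14 mice, the tumor share was higher in 5 and lower in 9 mice, with a mean difference of 0.274 percentage points (SD 4.03, 100000 random sign flips, permutation p = 0.889, adjusted p = 0.953). Without 2.5e8 mouse 3 it was -0.675. Of the 23 V segments 0 (0%) differed in the same direction in all mice. Within arms the mean difference was -0.180 (lower in 3 of 4) for mRBC-CTRL, 1.84 (lower in 3 of 5) for 2.5e8 and -0.934 percentage points (lower in 3 of 5) for 1e9, with exact sign-flip p of 0.875, 0.875 and 0.5. Without the largest TCRBV29-01 clone of each library, the mean difference was -1.51 percentage points (permutation p = 0.0005, adjusted p = 0.0115). This removal can only lower the share, and the other V segments kept all their clones. The clone removed averaged 1.16%, 4.74% and 1.34% of tumors for mRBC-CTRL, 2.5e8 and 1e9. In day 7 blood it averaged 0.222%, 1.16% and 0.752%. Tumors thus lost more by the removal itself, and no conclusion is drawn from this value. With the OT-1 and lymphoma receptors kept in the denominator and no clone removed, tumor minus blood was -1.72 percentage points (permutation p = 0.00022, adjusted p = 0.000506). In that denominator their templates lower the share of other receptors.

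In the tumor with the highest share of each group, a single clone held most of the TCRBV29-01 templates. Not every tumor was so, as that of 1e9 mouse 2 had a share of 3.61% with a largest clone of 3 templates. Without the largest TCRBV29-01 clone, tumor shares still ran from 0.897% to 3.26%. The J1-3 clone of 2.5e8 mouse 3 held 2119 templates, which was 16.8% of the tumor (95% Wilson interval 16.2% to 17.5%) and 89.3% of its TCRBV29-01 templates. In the blood of this mouse the clone had 7 templates on day 0 (0.0715%) and 76 on day 7 (3.06%, Wilson 2.45% to 3.82%). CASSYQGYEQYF in 1e9 mouse 3 was at 0 of 3016 templates on day 0, which allows a share of up to 0.0995%, at 1.43% of day 7 blood (85 templates) and at 4.66% of the tumor (188 templates). The J2-1 clone of mRBC-CTRL mouse 5 was at 0 of 4983 templates on day 0 (up to 0.0602%), at 0.580% of day 7 blood (29 templates) and at 4.03% of the tumor (476 templates). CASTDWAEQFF in 2.5e8 mouse 2 went from 0.0162% (3 templates) to 1.82% (89 templates) in blood and made up 1.46% of the tumor (131 templates), the blood and tumor intervals overlapping. The shares of the first 3 of these clones were higher in the tumor than in day 7 blood, with Wilson intervals that did not overlap. Those intervals cover counting error only. These 3 clones were picked as the largest TCRBV29-01 clones of their tumor and day 7 blood groups, so the comparison is a description and not a test. Copies of the read of 2.5e8 mouse 3 also occurred in the tumor of 2.5e8 mouse 4 (2 templates) and copies of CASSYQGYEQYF in the tumor of 1e9 mouse 5 (1 template), and carry-over between libraries was not tested.

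**Figure D3:**
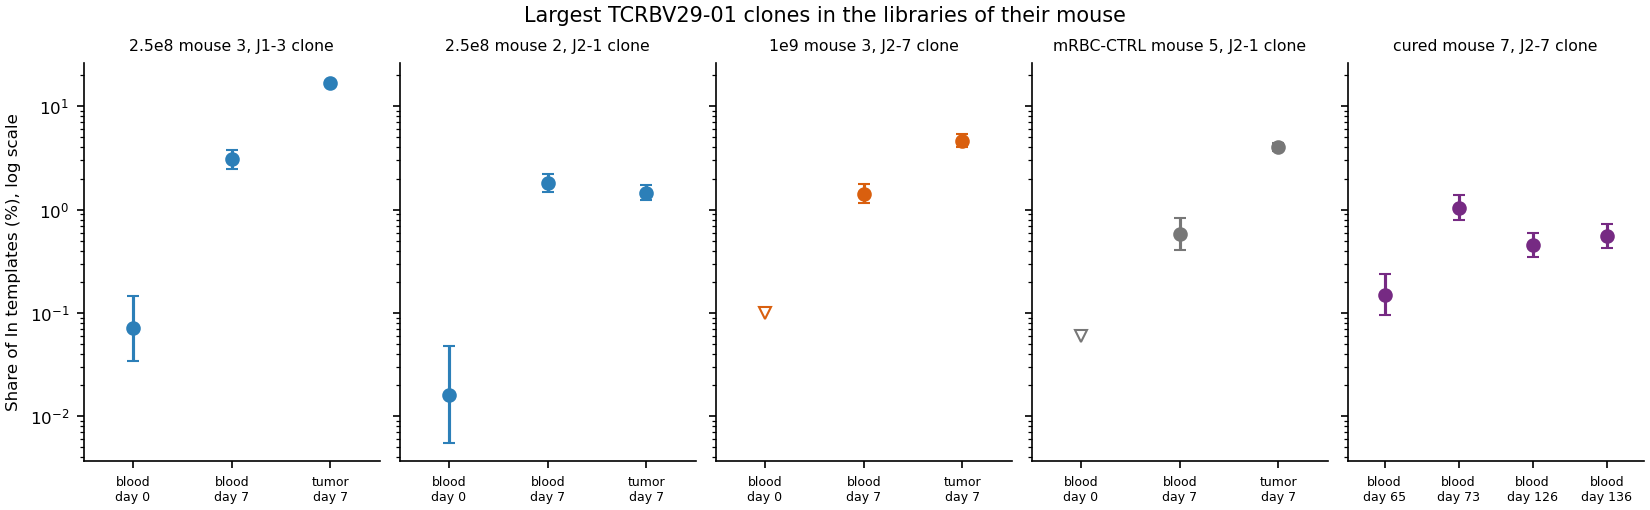
Share of productive templates (log scale) of 5 TCRBV29-01 clones in every library of their mouse, with 95% Wilson intervals, which cover counting error only. Open triangles mark libraries with 0 templates and stand at the share of 3 templates. The 4 clones of treated mice are at or below 0.0995% on day 0 and between 0.580% and 3.06% in day 7 blood, and the clone of cured mouse 7 stays between 0.456% and 1.04% from day 73 to day 136.

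Shared clones joined tumor and blood in most mice. Of 895 TCRBV29-01 rearrangements in the 14 tumors and 1469 in the day 7 blood of the same mice, 46 were found in both tissues of a mouse. They were a median of 5.40% of the tumor and 3.36% of the blood rearrangements per mouse, near the 5.19% and 3.50% of all V segments, and occurred in 13 of 14 mice. Yet they held a median of 49.0% of the TCRBV29-01 templates in the tumor, with a range from 0% to 91.6%, against 62.9% for all V segments. Among the 1019 distinct TCRBV29-01 rearrangements of the tumors, 7 occurred in 2 tumors, and none in more.

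A single CDR3, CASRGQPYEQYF with J2-7, was abundant in 2 tumors through different nucleotide sequences, and it was singled out after its values were seen. In mRBC-CTRL mouse 3 it held 225 templates (0.953%) in the tumor and 10 (0.160%) in day 7 blood. In mRBC-CTRL mouse 5 it held 126 templates (1.07%) in the tumor and 5 (0.1%) in day 7 blood. The read of mouse 5 also had 4 templates in the tumor of mRBC-CTRL mouse 4, and carry-over between libraries was not tested. The reads of mice 3 and 5 are shown because they differ by 1 base, A12G, counted from the first base of the CDR3, within a codon for the same amino acid.
mRBC-CTRL mouse 3, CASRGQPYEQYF: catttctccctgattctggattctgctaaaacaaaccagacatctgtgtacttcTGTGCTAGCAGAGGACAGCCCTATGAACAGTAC
mRBC-CTRL mouse 5, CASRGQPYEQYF: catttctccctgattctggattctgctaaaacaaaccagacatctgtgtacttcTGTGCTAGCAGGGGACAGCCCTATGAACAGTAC

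Clones were compared between paired blood libraries of a mouse. Over 32 pairs, 44 TCRBV29-01 rearrangements had at least 5 templates in a pair, of which 20 (45.5%) were higher and 2 (4.55%) lower at the later sampling (Fisher's exact test, adjusted within the mouse). Over all V segments 353 of 1106 rearrangements tested (31.9%) were higher and 83 (7.5%) lower. Clones entered by the templates of both libraries together. Of the 20 higher clones 13 were at 0 in the earlier library, and both lower clones were at 0 in the later one. Most of those called thus passed the minimum only through the library in which they were high. The counts are descriptions, and so is each Fisher's exact p given below for a single clone, named from among those called. These tests compare libraries and leave out the spread between blood samples of a mouse. In the treatment experiment 6 of 6 TCRBV29-01 clones tested were higher at 2.5e8 and 7 of 11 at 1e9, where 61.2% and 61.0% of all clones tested were higher, and 1 of 5 was higher in mRBC-CTRL mice, against 32.1%. The largest clones at the first sampling were small, with 4 templates each for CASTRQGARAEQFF in mRBC-CTRL mouse 3 and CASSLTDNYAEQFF in 1e9 mouse 3 and 3 templates for a J1-3 clone of 15 residues in 2.5e8 mouse 4, and each was at 0 in the later blood and the tumor of its mouse. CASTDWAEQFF gave the smallest p of these (Fisher's exact adjusted p = 2.57e-55). Around the EG7.OVA rechallenge 5 of 8 clones were higher in cured mice, against 26.4% of all clones, and 3 of these 5 belonged to mouse 7. In naive mice the only TCRBV29-01 clone tested, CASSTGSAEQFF, was lower, with 5 templates on day 65 and 0 of 5973 on day 73, where 15.7% of all clones tested were higher and 21.6% lower. Around EL4, 1 of 13 was higher and 1, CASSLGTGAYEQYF in cured mouse 5, was lower, from 6 templates to 0 of 22115, where 8.36% of all clones tested were higher and 14.9% lower. The higher clone was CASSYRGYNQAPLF in cured mouse 1, which held 0 of 7849 templates on day 126 (up to 0.0382%), and was also at 0 on days 65 and 73, and 35 templates or 0.375% on day 136 (Fisher's exact adjusted p = 8.47e-09).

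Few rearrangements were found at every sampling of a cured mouse. Most clones had too few templates to be found again, as on day 73 in mouse 3, with 180 TCRBV29-01 templates in 152 rearrangements. The counts thus measure detection at this depth, and the persistence of small clones was not tested. In the 7 cured mice, 6 of 6984 TCRBV29-01 rearrangements (counted per mouse) were found at all 4 samplings. For all V segments it was 104 of 202458. Of the 6 with TCRBV29-01, 4 were in mouse 7. The largest was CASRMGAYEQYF, which held 18 templates (0.150%) before and 49 (1.04%) after the EG7.OVA rechallenge and 50 (0.456%) before and 51 (0.556%) after the EL4 challenge. The intervals of day 65 and of each later day did not overlap, and it was higher on day 73 than on day 65 (Fisher's exact adjusted p = 3.22e-13). In mouse 5 the largest such clone, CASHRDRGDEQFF, held 4, 3, 2 and 1 templates, and in mouse 1, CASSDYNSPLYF held 1 template at each sampling, both within counting error throughout.

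Comparing In with Out rearrangements shows how the share of a V segment differs between joints that make a receptor and joints that do not. Over the blood libraries of 27 mice, TCRBV29-01 made up 3.43% ± 0.340 of In and 2.95% ± 0.343 of Out rearrangements, with In higher in 23 of 27 mice. The mean log2 ratio was 0.217 (SD 0.223, a ratio of 1.16), with 100000 random sign flips giving a permutation p = 5e-05 (adjusted p = 7.19e-05). It ranked 7 of 23 V segments in this ratio, and 12 of 23 segments (52.2%) had a higher In share at an adjusted p under 0.05, so a higher In share was common among V segments.

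The excess was not seen in blood drawn minutes after the OT-1 transfer. There the In share minus the Out share was -0.180 ± 0.514 for mRBC-CTRL (In higher in 3 of 5 mice), -0.0509 ± 0.479 for 2.5e8 (2 of 5), -0.249 ± 0.433 for 1e9 (1 of 4) and 0.0278 ± 0.350 percentage points for naive mice (3 of 5). On day 7 the difference was 0.356 ± 0.384 (4 of 4), 1.03 ± 0.878 (4 of 5) and 1.80 ± 1.42 (5 of 5) for the same 3 arms, and on day 73 in naive mice it was 0.821 ± 0.411 (5 of 5). In the 4 samplings of cured mice, whose first blood was drawn on day 65, it was 0.505 ± 0.589 (5 of 7), 0.393 ± 0.436, 0.615 ± 0.380 and 0.668 ± 0.394, with In higher in 25 of 28 libraries. From day 0 to day 7 the Out share itself changed by -0.249 percentage points in mRBC-CTRL mice (lower in 4 of 4). It changed by -0.408 at 2.5e8 (lower in 3 of 5) and by -0.695 at 1e9 (lower in 3 of 4). Exact sign-flip p were 0.125, 0.5 and 0.375. Lower mean Out shares thus added to the day 7 differences of the 3 arms. Using only the first blood library of each mouse, the log2 ratio was 0.0460 (permutation p = 0.383, adjusted p = 0.416). Single libraries held between 4 and 287 Out rearrangements with TCRBV29-01, so values of single mice are imprecise. In tumors the difference was 0.305 ± 0.616, 1.07 ± 0.749 and 1.14 ± 1.15 percentage points for mRBC-CTRL, 2.5e8 and 1e9.

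**Figure D4:**
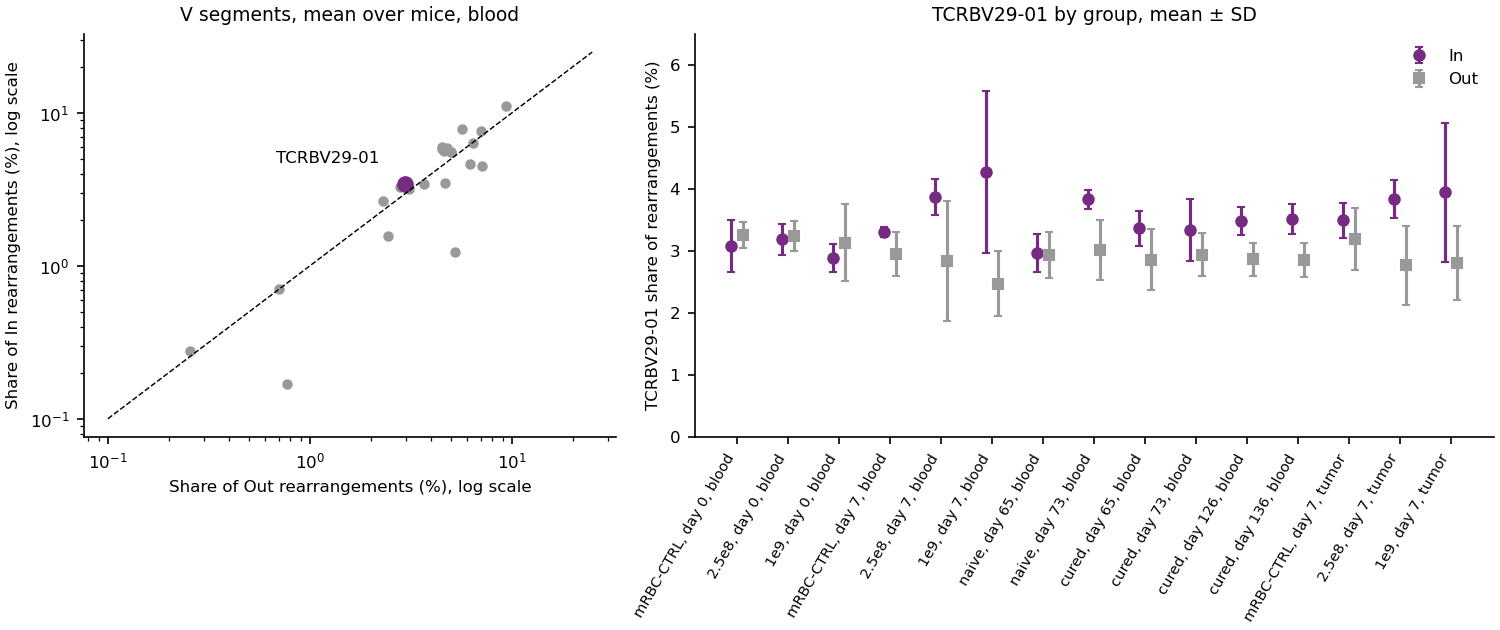
Left, mean share of In (vertical axis) against Out rearrangements (horizontal axis) over 27 mice in blood, on log scales, for each of 23 V segments, with the dashed line at equality and TCRBV29-01 in purple. Right, TCRBV29-01 share of In (circles) and Out (squares) rearrangements, mean ± SD of the mice of each group. TCRBV29-01 lies above the line at 3.43% In and 2.95% Out, and In and Out lie close together in the blood of day 0 and of naive mice on day 65.

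TCRBV29-01 was joined to J segments of the first cluster more often than other V segments were. The J1 cluster lies beside D1 and the J2 cluster beside D2. J1 segments made up 42.6% ± 3.65 of its In rearrangements against 36.3% ± 1.09 for the other V segments (higher in 25 of 27 mice, difference 6.36 percentage points, SD 3.66). The permutation p over 100000 random sign flips was 1e-05, the smallest it can give (adjusted p = 2.09e-05), and only TCRBV26-01 had a larger difference among the 23 V segments, of which 8 (34.8%) were higher. The preference was present in Out rearrangements too, at 43.2% ± 7.92 against 32.1% ± 1.39 (higher in 24 of 27 mice, permutation p = 1e-05, adjusted p = 3.29e-05), where 11 of 23 segments (47.8%) were higher.

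By single J segments, 5 of 12 were used more and 3 less with TCRBV29-01, where 43.5% of all V and J combinations tested differed at the same threshold. The largest increases were J1-1 (12.6% ± 2.11 against 11% ± 0.555, higher in 21 of 27 mice, permutation p = 4e-05, adjusted p = 0.00016), J1-2 (7.84% ± 2.48 against 6.27% ± 0.328, 21 of 27, adjusted p = 0.0102) and J1-5 (4.60% ± 1.28 against 3.28% ± 0.300, 23 of 27, adjusted p = 0.00016). J1-3 and J1-4 were also higher. The decreases were J2-4 (6.56% ± 1.56 against 8.39% ± 0.360, lower in 24 of 27, permutation test, adjusted p = 0.00012), J2-7 (17.4% ± 3.39 against 19.0% ± 0.531, lower in 19 of 27, adjusted p = 0.0294) and J2-3 (6.91% ± 1.79 against 8.47% ± 0.538, lower in 22 of 27, adjusted p = 0.00054). J2-7 nonetheless remained the most frequent partner of TCRBV29-01. D1 was assigned in 59.2% of its In rearrangements and D2 in 17.9%, against 46.7% and 33.5% for the other V segments, a pooled description without a test.

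The ends of the segment were trimmed further than those of most V segments. TCRBV29-01 lost 4.04 ± 0.197 bases from its 3′ end against 2.58 ± 0.0351 for the others, more in 27 of 27 mice (permutation p = 1e-05, adjusted p = 1.15e-05), and 12 of 23 V segments (52.2%) were trimmed more than the rest. The same held in Out rearrangements, at 4.27 ± 0.370 against 2.97 ± 0.235 bases (more in 27 of 27, permutation p = 1e-05, adjusted p = 1.77e-05, with 11 of 23 segments or 47.8% higher). An untrimmed end was kept by 9.48% of TCRBV29-01 rearrangements and 23.7% of the others. N bases numbered 3.62 ± 0.185 against 3.41 ± 0.0471 (more in 24 of 27 mice, permutation p = 1e-05, adjusted p = 1.92e-05, 7 of 23 segments or 30.4% higher). Trimming of the J end was 2.88 ± 0.187 against 2.80 ± 0.0260 bases (permutation p = 0.0207, adjusted p = 0.0512), and 4 of 23 segments (17.4%) were higher.

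The CDR3 of TCRBV29-01 was slightly shorter than that of the other V segments. Its mean length was 13.6 ± 0.145 residues against 13.9 ± 0.0237, shorter in 26 of 27 mice (mean difference -0.284 residues, permutation p = 1e-05, adjusted p = 1.77e-05), and 11 of 23 V segments (47.8%) were shorter than the rest. The modal length was 14 residues in both sets. Loops of 12 residues made up 13.7% against 10.8% and loops of 15 residues 18.1% against 21.9%. Of the TCRBV29-01 loops 81.3% began with CASS, and leucine followed in 43.1% of these. Across groups the mean length ranged from 13.5 residues in day 0 blood of 1e9 mice to 13.9 residues in day 7 blood of mRBC-CTRL mice, and the J1 share from 40.2% in day 7 blood at 2.5e8 to 47.0% in 2.5e8 tumors, with SDs between mice of up to 10.1 percentage points.

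**Figure D5:**
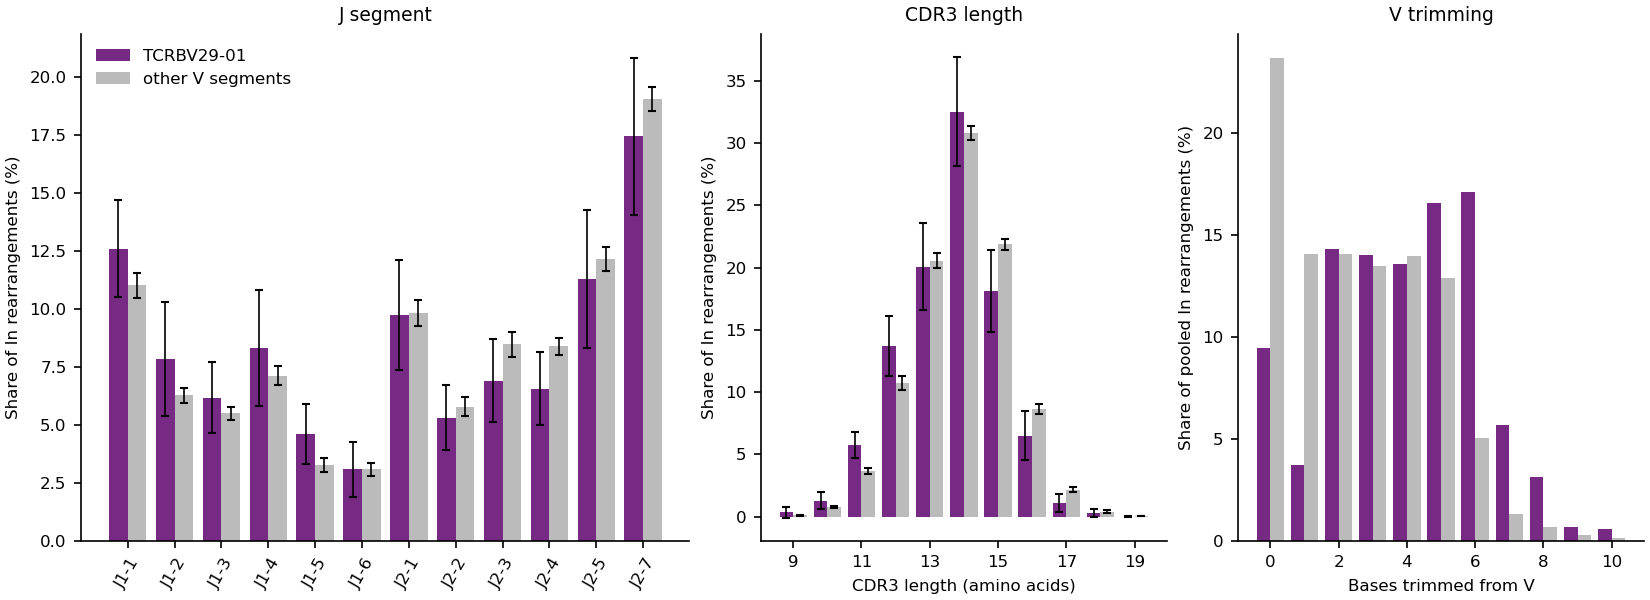
Joints of productive TCRBV29-01 rearrangements (purple) and of all other V segments (grey) in blood. The left and middle panels give the share of each J segment and of each CDR3 length as the mean ± SD over 27 mice, and the right panel the share by bases trimmed from the V segment, pooled over mice. J1-1 to J1-5, loops of 12 residues or fewer and trimming of 5 or more bases are more frequent with TCRBV29-01.

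Of 10817 TCRBV29-01 CDR3s, 887 (8.20%) were found in at least 2 of the 27 mice and 37 (0.342%) in at least 5, against 12.3% and 1.04% of the CDR3 and V pairs of the other segments. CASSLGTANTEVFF was found in 10 mice with 6 nucleotide sequences and 11 templates in all. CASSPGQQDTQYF was in 9 mice (4 sequences), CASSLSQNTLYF in 8 mice (4 sequences), and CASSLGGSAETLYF and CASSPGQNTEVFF in 7 mice each (4 sequences). These 5 CDR3s held between 8 and 11 templates each in all libraries together. Reads of large clones also occurred in more than 1 mouse, as given above. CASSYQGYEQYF and the J1-3 clone of 15 residues were in 2 mice each through the same read, with 1 and 2 templates in the second mouse. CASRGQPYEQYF was in 3 mice, with 4 templates of the read of mRBC-CTRL mouse 5 in mRBC-CTRL mouse 4. Carry-over between libraries was not tested for any of them. Of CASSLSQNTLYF, 3 sequences are shown because they reach the same loop without N bases and with 0 or 2 V bases trimmed, the last through J1-3 instead of J2-4.
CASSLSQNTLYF with J2-4, 2 bases trimmed, 4 mice: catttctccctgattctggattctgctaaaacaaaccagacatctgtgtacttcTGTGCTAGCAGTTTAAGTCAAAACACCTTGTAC
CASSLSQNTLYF with J2-4, 0 bases trimmed, 2 mice: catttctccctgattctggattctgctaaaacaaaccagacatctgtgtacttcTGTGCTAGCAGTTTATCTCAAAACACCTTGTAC
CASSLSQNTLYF with J1-3, 0 bases trimmed, 1 mouse: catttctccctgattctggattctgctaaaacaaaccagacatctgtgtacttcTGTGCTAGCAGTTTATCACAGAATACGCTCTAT

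The V segments whose shares ran most like that of TCRBV29-01 over the 81 libraries were TCRBV04-01 (Spearman's rho 0.398), TCRBV17-01 (0.276) and TCRBV14-01 (0.251). Over the 66 blood libraries alone rho was 0.281, 0.213 and 0.171. The libraries include several from each mouse, and shares of a library are bound to sum to a whole, so these values are descriptions.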

How the data were processed

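The authors amplified TCRβ joints from genomic DNA of 66 blood samples and 15 tumors by the immunoSEQ multiplex PCR with correction of primer bias, and the reads were then collapsed and filtered. The authors deposited for each rearrangement its unnormalized template count, the fraction of the library it makes up, and other values such as the CDR3 length, trimmed and inserted bases. Aligner and genome build are not given in the sources used here, so no coordinates are printed. The members and lists were chosen with earlier results of these data known.

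From the counts, each V segment's share of In templates without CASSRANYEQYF and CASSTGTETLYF was computed per library. Groups were compared by 2-sided exact permutation tests over splits of the mice, and samples of a mouse (same mouse number in the labels) by 2-sided exact sign-flip tests, or by 100000 seeded random flips for 10 or more mice. Each test was run for 23 V segments and adjusted by the Benjamini-Hochberg method over them. Joints were compared with those of all other V segments after averaging the blood libraries of a mouse, counting rearrangements. J segments with at least 200 rearrangements (12 segments) were adjusted together. Clones with at least 5 templates in 2 libraries were compared by 2-sided Fisher's exact tests, adjusted within the mouse over all V segments. Scripts were tested on simulated data. Single shares carry 95% Wilson intervals, and a count of 0 was bounded by 3 templates.

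Named were the largest clone of each of the 15 groups, the largest called and the largest persisting clones, the 5 CDR3s found in the most mice, the 3 most similar V segments and the 3 J segments with the largest differences each way. Alternatives were the share of rearrangements, all In templates, leaving out rearrangements with 1 template, a log2 scale with a pseudocount of 0.01%, adding or removing the replicate block, omitting single mice, subsets of libraries, counting by templates, Out with Stop rows, and stricter clone thresholds. Leaving out the largest TCRBV29-01 clone of each library, and leaving out 945 Out rows within 6 edits of the OT-1 or lymphoma rearrangement, were added after seeing the data. Scripts ran in pandas 2.3.3, scipy 1.17.1 and numpy 2.4.6 under Python 3.11.15, with edlib 1.3.9.post1 for edit distances and matplotlib 3.10.9 for plots.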

Additional observations from a re-analysis of the deposited data

Results flagged for a closer look

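Within groups of 4 to 7 mice, the highest and lowest TCRBV29-01 shares were compared with the nearest other mouse by Dixon's test at 95%, for templates and for rearrangements in each of 15 groups, and 2 of these 30 sets held a value far from the others, where chance flags about 1 in 20. The tumor of 2.5e8 mouse 3 held 18.8% of templates in TCRBV29-01 (Wilson 18.1% to 19.5%), with the next highest tumor of its group at 5.72%. The tumor of mRBC-CTRL mouse 5 held 6.65% (Wilson 6.21% to 7.11%), with the next at 2.55%. By rearrangements the same tumors were at 4.02% and 3.90% and did not stand apart.

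The change in blood from day 0 to day 7 was 1.36 percentage points larger at 2.5e8 than with mRBC-CTRL (exact permutation test, p = 0.0476), rising in 5 of 5 mice against 3 of 4. It did not pass the adjustment of this exact test over 23 V segments (adjusted p = 0.274).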

How the results depend on the processing

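Of 229 alternative values of 22 results, 205 kept their direction and their side of the threshold, 6 were no longer past it, 2 were newly past it and 16 changed sign, and most sign changes were of small differences that passed no test. Exact sign-flip tests on 4 or 5 pairs cannot give a p under 0.05. Alternatives judged by them could not pass the threshold, so their side of it was fixed in advance. With all In templates as the denominator, the difference of 1e9 from mRBC-CTRL in day 7 blood was -1.63, the 1e9 change from day 0 to day 7 -0.550, tumor minus blood -1.72 and the cured change around EG7.OVA -0.768 percentage points, while cured minus naive before EG7.OVA was 0.712 and passed the threshold (adjusted p = 0.0194 of the exact permutation test). This denominator contains the OT-1 and lymphoma templates, which lower the share of other receptors as they rise. Without rearrangements of 1 template, the mRBC-CTRL change was -0.0806 and the cured change around EG7.OVA -0.146. By rearrangements, tumor minus blood was -0.0844 and the cured change -0.0313, on the log2 scale -0.349 and -0.0296, and without the largest clone -1.51 and -0.106. The log2 ratio of In to Out was 0.0460 at the first sampling alone, and the difference in N bases in tumors was 0.200 (adjusted p = 0.210 over permutations). J segments that differed numbered 3 in the treatment experiment alone (15 mice) and 1 in tumors, against 8. Clones lower at the later sampling numbered 0 with a minimum of 10 templates and also 0 when the adjusted p of Fisher's exact test had to be under 0.01, against 2. Without adjustment, 23 of 44 clones were under 0.05, whichever their direction.

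Leaving out each mouse in turn gave -0.369 (without 1e9 mouse 3) to 1.51 (without mRBC-CTRL mouse 5) for 1e9 minus mRBC-CTRL tumors, -0.675 (without 2.5e8 mouse 3) to 0.615 for tumor minus blood, -0.240 (without mouse 7) to 0.178 for the cured change around EG7.OVA and 0.337 (without naive mouse 2) to 0.563 (without naive mouse 1) for cured minus naive before EG7.OVA, which passed the threshold without cured mouse 4. Without 2.5e8 mouse 3, the 2.5e8 minus mRBC-CTRL difference in day 7 blood was 0.955. Without 1e9 mouse 3, the 1e9 change from day 0 to day 7 was 0.962.

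Mouse numbers shared between arms name different animals, and deviations of same-numbered mice correlated at -0.0811 over 18 pairs in the treatment and -0.356 over 10 pairs in the rechallenge experiment. With the replicate block the 2.5e8 minus mRBC-CTRL difference in day 7 blood was 1.59 (adjusted p = 0.411 of the exact sign-flip test). Adding this block, or removing the pairing of samples of a mouse (naive change 0.927, adjusted p = 0.0913 of the exact permutation test), changed no call. No share comparison had passed the threshold without the block. With it, the exact sign-flip test cannot go below p = 0.125 for 4 pairs or p = 0.0625 for 5 pairs. The block therefore could not change a call. Depth limited single libraries, the shallowest of which held 482 templates.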
